A study of Mus musculus with 9 samples.

Results

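The transcriptome of a mouse leukaemia line carrying an shRNA against Eed was compared with that of the same line carrying a control shRNA. The line, on the B6/SJL(CD45.2) background, carries the MLL-AF9 fusion and NrasG12D, and every group shares both lesions. It was grown in RPMI1640 medium with serum and transduced with MSCV retroviral vectors (LMN) that expressed an shRNA against Eed, against Suz12 or, as the control, against Renilla luciferase ("Rluc" in the labels), a gene absent from mouse cells. Total RNA of day 5 was hybridized to 9 whole-transcript arrays, 3 for each shRNA. The comparison uses the 6 arrays titled for Eed and for Rluc, and all 19937 genes that could be named from 1 probe set each, with the most abundant probe set standing for a gene that had several. The 3 arrays of the Suz12 shRNA entered the same fit and are used to ask where the response to Eed shRNA differed from it. The labels name a single line, 1 shRNA for Eed, no sequence for it, and no sorting of transduced cells. They do not say from which event day 5 was counted, nor whether each array stands for its own transduction or culture, so the p-values below measure the spread between these arrays, which may be technical.

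Eed is a core subunit of Polycomb repressive complex 2 (PRC2). The complex trimethylates a lysine in the tail of histone H3, through the catalytic subunits Ezh2 or Ezh1, and Eed holds the complex together and binds the finished mark, which lets the mark spread along chromatin. Genes covered by the mark are kept silent, and many sit in regions rich in the dinucleotide CpG. The mark is best known on developmental regulators, on the Cdkn2a and Cdkn2b locus and on genes of other lineages. In blood, the granule proteins, receptors and degradative enzymes of mature myeloid cells are switched on in order as a progenitor stops dividing and differentiates. In leukaemia driven by MLL-AF9 that progression is blocked at a stage resembling a granulocyte and macrophage progenitor.

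The targeted transcript fell in the arrays labelled for it. Eed stood at 10.24, 10.14 and 10.27 on the log2 scale in the 3 control arrays and at 8.34, 8.56 and 8.51 under Eed shRNA. The groups do not overlap, and the change was -1.75 ± 0.08 (SE), 3.36-fold lower (adjusted p = 3.1e-07). A second Eed probe set, with a mean of only 5.37 over all arrays, differed by 0.16 (adjusted p = 0.34). Where values below are given for 1 gene, levels and changes are log2 values of the array signal, SDs are over 3 arrays and adjusted p-values come from limma's moderated test over all genes.

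Of the other PRC2 genes measured, Phf1, an accessory subunit that recruits the complex, rose by 0.39 ± 0.08 (SE), and Ezh1, the alternative catalytic subunit, by 0.22 ± 0.05. Phf19, another recruiting subunit, fell by 0.43 ± 0.06, and the histone-binding subunits Rbbp7 and Rbbp4 fell by 0.21 ± 0.05 and 0.14 ± 0.04. The call on Rbbp4 (adjusted p = 0.0465) was lost in other fits. The remaining subunits did not pass the test: Suz12 differed by -0.16 (adjusted p = 0.125), Ezh2 by -0.01 and Jarid2, Mtf2, Aebp2, Epop and Lcor by between -0.09 and 0.04. PRC1 is the partner complex that reads the PRC2 mark and compacts chromatin. Of its 20 measured subunits 1 rose, Bmi1, by 0.59 ± 0.11, and 5 fell, led by L3mbtl2 (-0.40) and Kdm2b (-0.33), which recruits a PRC1 variant to CpG-rich DNA. Among the enzymes that remove the mark or methylate DNA, the demethylase Kdm6b rose by 0.51 ± 0.09 and the maintenance methylation factor Uhrf1 fell by 0.29 ± 0.05.

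The response was broad, and falls were many and small while rises were fewer and large. Of 19937 genes, 4352 (21.8%) were called at an adjusted p under 0.05, 1750 (8.78%) higher and 2602 (13.1%) lower. Among changes of at least 1.5-fold the balance was the other way round, with 396 genes (1.99%) higher and 79 (0.396%) lower. At least 2-fold there were 151 rises and 12 falls, and at least 4-fold there were 17 rises and 0 falls. The median called rise was 0.33 and the median called fall -0.27. Over all genes the median change was -0.01 and the median SE 0.054. The 3 arrays of one group did not overlap those of the other for 6427 genes (32.2%). The share of calls that were rises, 40.2%, was 29.4% when arrays were centred on their medians and 50.6% after cyclic loess, so the split of small changes into rises and falls depends on the scaling. Among changes of at least 1.5-fold that share was 83.4%, and between 77.9% and 87.8% in the same alternatives. The counts of list members called, given below, stand against the 8.78% of all genes that rose and the 13.1% that fell.

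Pairs of arrays of the same group differed by an SD over genes of 0.102 to 0.14 (6 pairs), and an Eed shRNA array differed from a control array by 0.23 to 0.268 (9 pairs). RMA values carry no detection call, so a guide to background was taken from 1027 olfactory receptor genes: 95% of them had a control mean at or under 6.32. In at least 1 group 13533 genes had a mean above it. Of the 396 genes that rose at least 1.5-fold, 35 had a control mean under the guide, and 27 of these were above it under Eed shRNA. They include Adgre4, Cd200r3, Ly6g, Akr1c18, Npr2, Il1f9, Arg2 and Mmp8. Background signal compresses folds at such levels.

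**Figure D1:**
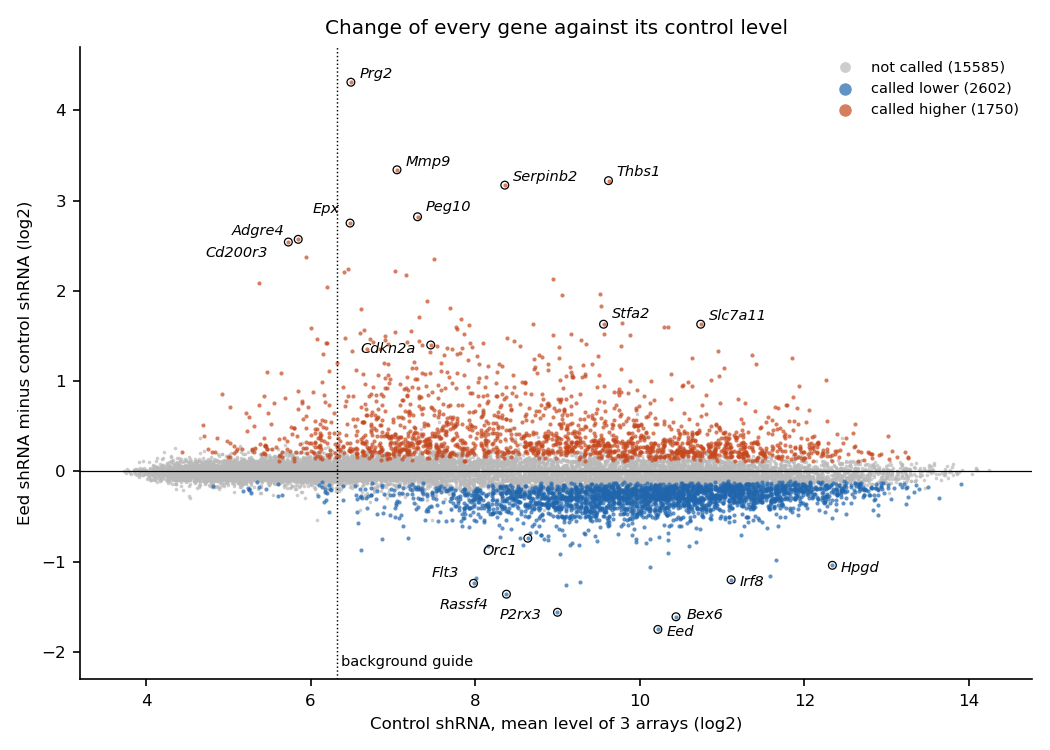
Change under Eed shRNA (vertical axis, log2 difference of 3-array means) against the control level (horizontal axis, log2), 1 point per gene. Rises reach 4.31 (Prg2) and start from levels on both sides of the guide, while falls other than that of Eed end at Bex6 (-1.61) and lie mostly at levels above the background guide (dotted line).

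The largest rises and falls named here were ranked only among called genes whose Eed shRNA and control arrays do not overlap. Their separation was thus a condition of the ranking and not a finding. The 4 largest rises were in Prg2, Mmp9, Thbs1 and Serpinb2. Prg2, the major basic protein of eosinophil granules, read 6.29, 6.66 and 6.53 in the controls and 10.70, 10.87 and 10.84 under Eed shRNA, a 19.9-fold rise (4.31 ± 0.11, adjusted p = 2.35e-08). Mmp9, the gelatinase that neutrophils store in granules and use to cut matrix, read 7.11, 7.07 and 6.97 against 10.59, 10.30 and 10.30, 10.2-fold higher. Thbs1, thrombospondin 1 of platelets and the matrix, read 9.24, 9.95 and 9.67 against 12.78, 12.97 and 12.79, 9.34-fold higher. Serpinb2, an intracellular inhibitor of plasminogen activators made by activated macrophages, rose 9.0-fold, from 8.10, 9.05 and 7.94 to 11.54, 11.73 and 11.33. The control arrays of Serpinb2 spread over more than a log2 unit (SD 0.60), without reaching its Eed shRNA arrays.

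Peg10, an imprinted gene derived from a retrotransposon and expressed from the paternal allele, rose 7.08-fold, from 7.15, 7.55 and 7.21 to 10.09, 10.32 and 9.96. Epx, eosinophil peroxidase, rose 6.74-fold, from 6.61, 6.49 and 6.33 to 9.16, 9.32 and 9.22. Next came 2 surface receptors of myeloid cells that were under the background guide in all 3 controls. Adgre4, an adhesion G protein-coupled receptor, rose 5.92-fold, from a mean of 5.85 ± 0.09 (SD, n = 3) to 8.41 ± 0.10. Cd200r3, an activating member of the CD200 receptor family found on basophils and mast cells, rose 5.80-fold, from 5.73 ± 0.18 to 8.26 ± 0.10. Ly6g, the neutrophil surface protein recognised by the Gr-1 antibody, rose 5.17-fold, from 5.95 ± 0.29 to 8.32 ± 0.11.

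The rest of the 25 largest rises, all with separated groups as the ranking required, lay between 1.69 and 2.35 and covered several functions. Serpinb8 (2.35) and Serpinb10 (1.97) are protease inhibitors encoded beside Serpinb2. Prg3 (2.22) is a second basic protein of eosinophils. Perp (2.24) is a p53-induced protein of cell junctions. Lipn (2.21) is a lipase, Mogat2 (2.13) an acyltransferase of triglyceride synthesis and Akr1c18 (2.09) a steroid dehydrogenase. Npr2 (2.04) is the receptor of C-type natriuretic peptide, Il1rn (1.95) the antagonist of the interleukin 1 receptor, and Pdpn (1.89) a mucin-like membrane protein that activates platelets. Timp2 (1.71) inhibits metalloproteinases, Igfbp7 (1.81) binds insulin-like growth factors and Cd200r1 (1.69) is the inhibitory CD200 receptor. Spin4 (2.18), Tmem71 (1.83) and Glyat (1.80), a glycine acyltransferase, complete the set.

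After Eed, the largest falls were in a mixed set that held signalling adaptors and progenitor regulators. Bex6 read 10.58, 10.22 and 10.50 in the controls and 8.87, 8.83 and 8.77 under Eed shRNA, 3.06-fold lower (-1.61 ± 0.13, adjusted p = 1.43e-05). P2rx3, an ATP-gated ion channel best known in sensory neurons, fell 2.95-fold, from 8.59, 9.13 and 9.28 to 7.37, 7.45 and 7.49. Its second probe set lies near background, with a mean of 6.17, and differed by 0.00, so the fall rests on 1 of 2 probe sets. Rassf4, a RAS-association domain protein, fell 2.56-fold, from 8.16, 8.50 and 8.48 to 6.88, 7.09 and 7.10. The groups were separated in all of these, as the ranking required.

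Tifa and Tifab, which encode related adaptors on the TRAF6 route to NF-kB, both fell, Tifa by 1.26 ± 0.11 and Tifab by 1.16 ± 0.08. Flt3, the receptor tyrosine kinase of early progenitors, read 8.20, 7.70 and 8.04 in the controls and 6.80, 6.53 and 6.87 under Eed shRNA, 2.37-fold lower. Irf8, the transcription factor that directs progenitors towards monocytes and dendritic cells and away from granulocytes, fell 2.29-fold, from 11.01, 11.03 and 11.30 to 9.82, 9.83 and 10.10. In both genes all 3 control arrays stood above all 3 Eed shRNA arrays, as the ranking required. Cxcl10, an interferon-induced chemokine, fell 2.34-fold with a wide spread in the controls (9.27 ± 0.44, SD, n = 3). Hpgd, which inactivates prostaglandins, fell from 12.34 ± 0.08 to 11.30 ± 0.06. Aldh1l2, a mitochondrial folate enzyme, fell by 1.18 ± 0.12. Cth, which makes cysteine from cystathionine, fell by 1.06 ± 0.18. Clec12a (-0.98), an inhibitory lectin receptor of myeloid progenitors, B4galt4 (-0.92), Plppr3 (-0.90), Ly86 (-0.87), Plxnb2 (-0.83), Tmem243 (-0.83), Bphl (-0.82) and the drug-efflux pump Abcb1b (-0.82) complete the 20 largest falls.

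**Figure D2:**
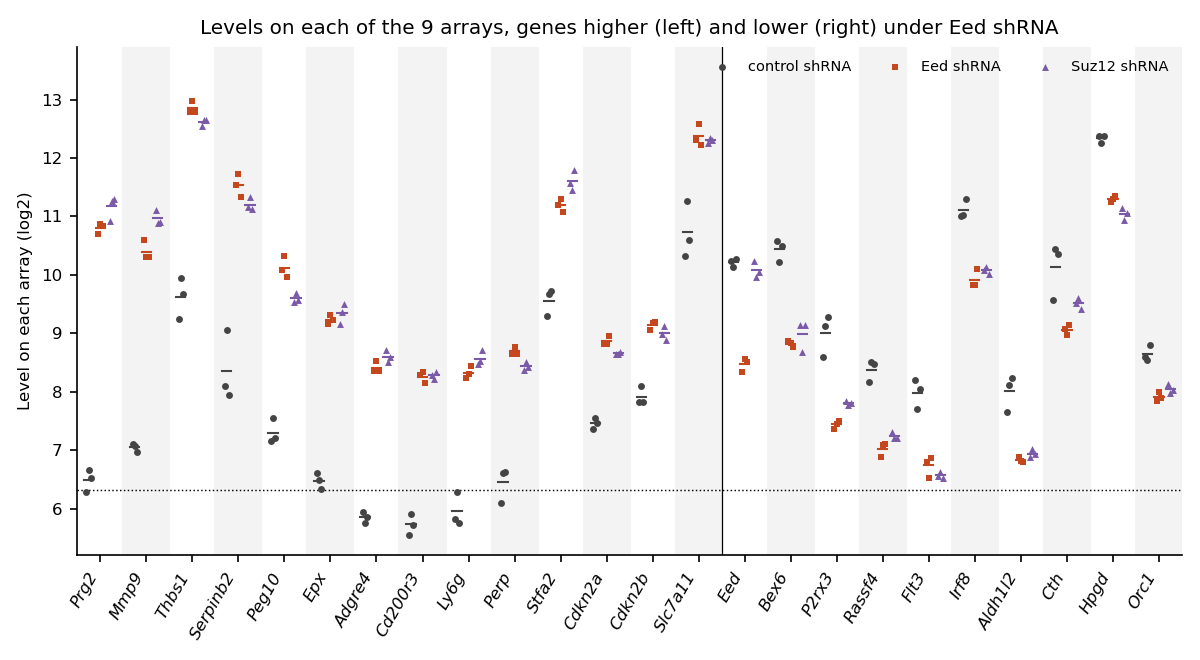
Level on each of the 9 arrays (log2) of 14 genes that rose and 10 that fell under Eed shRNA; each point is an array, short lines are group means and the dotted line is the background guide. The control points lie apart from the Eed shRNA points in all 24 genes, for example between 6.29 and 6.66 against 10.70 and 10.87 for Prg2. For most of these genes that separation was a condition of being ranked.

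Because the PRC2 mark is best known at CpG-rich promoters, the letters in front of genes that moved are shown for 6 of them, as 250 bases ending at the annotated start (RefSeq, GRCm38.p6), with each CpG in capitals. Epx (chr11:87875537-87875786, minus strand) and Serpinb2 (chr1:107511260-107511509, plus strand) are among the largest rises. Stfa2 (chr16:36408364-36408613, minus strand) and Cd200r3 (chr16:44943428-44943677, plus strand) belong to runs of neighbouring genes that rose together. Cdkn2a (chr4:89294620-89294869, minus strand) is the classical Polycomb target among the cell-cycle inhibitors. Orc1 (chr4:108579204-108579453, plus strand) is the replication gene that fell most. Serpinb2 and Cdkn2a have 2 annotated starts each, and the window with more CpGs is shown.
Epx: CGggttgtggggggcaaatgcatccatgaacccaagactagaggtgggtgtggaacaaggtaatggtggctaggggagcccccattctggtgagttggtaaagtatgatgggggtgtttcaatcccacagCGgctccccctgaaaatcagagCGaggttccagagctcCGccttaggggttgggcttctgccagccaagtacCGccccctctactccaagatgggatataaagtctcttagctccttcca
Serpinb2: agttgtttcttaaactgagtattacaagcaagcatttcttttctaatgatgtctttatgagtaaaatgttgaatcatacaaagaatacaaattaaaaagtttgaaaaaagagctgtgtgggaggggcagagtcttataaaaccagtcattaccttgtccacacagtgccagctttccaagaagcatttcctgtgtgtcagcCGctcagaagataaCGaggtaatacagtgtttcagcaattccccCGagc
Stfa2: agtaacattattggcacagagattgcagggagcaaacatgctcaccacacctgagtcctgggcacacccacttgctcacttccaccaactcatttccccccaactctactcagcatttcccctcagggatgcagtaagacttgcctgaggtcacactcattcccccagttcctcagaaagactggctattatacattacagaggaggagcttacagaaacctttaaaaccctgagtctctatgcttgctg
Cd200r3: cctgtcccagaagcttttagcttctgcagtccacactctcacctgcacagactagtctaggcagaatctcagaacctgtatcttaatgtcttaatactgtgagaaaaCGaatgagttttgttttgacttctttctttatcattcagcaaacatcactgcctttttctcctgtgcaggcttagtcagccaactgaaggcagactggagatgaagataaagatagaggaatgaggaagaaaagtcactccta
Cdkn2a: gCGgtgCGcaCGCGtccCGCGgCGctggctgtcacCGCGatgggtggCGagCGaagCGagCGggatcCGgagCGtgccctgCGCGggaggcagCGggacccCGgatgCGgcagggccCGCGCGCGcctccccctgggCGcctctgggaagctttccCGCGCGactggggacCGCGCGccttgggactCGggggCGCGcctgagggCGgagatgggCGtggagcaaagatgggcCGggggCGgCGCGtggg
Orc1: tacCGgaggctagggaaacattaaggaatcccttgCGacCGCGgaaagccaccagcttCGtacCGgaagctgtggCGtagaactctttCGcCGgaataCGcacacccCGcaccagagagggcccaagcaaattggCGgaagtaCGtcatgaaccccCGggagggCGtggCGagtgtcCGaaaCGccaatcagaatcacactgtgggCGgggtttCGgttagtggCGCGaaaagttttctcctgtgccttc
The windows of Epx, Serpinb2, Stfa2 and Cd200r3 hold 5, 3, 0 and 1 CpGs. Those of Cdkn2a and Orc1 hold 40 and 22. The 6 are examples and stand for no class. Windows counted but not printed vary: Cdkn2b, Ly6g, Clec4a2 and Cd300e, which rose, hold 12, 1, 1 and 6. Flt3 and Irf8, which fell, hold 13 and 29, and the replication gene Mcm2 holds 10.

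The CpG count was taken over all protein-coding genes with a window in the table, 15004 of 18552 (80.9%), for which its median was 12. CpG-rich here means a GC content of at least 50% and an observed over expected CpG ratio of at least 0.6. By that measure 49% of all windows were CpG-rich, 74.6% of those of genes called lower (median 18 CpGs, 2143 windows) and 56.6% of those of genes called higher (median 15, 1381 windows). The 61.1% among uncalled genes with a control level above the guide is a closer background for expressed genes than the 49%. Windows of the genes listed for specific and gelatinase granules and the mature neutrophil were CpG-rich in 2 of 30 cases (6.67%, median 3). For DNA replication genes the figure was 37 of 48 (77.1%) and for mitosis genes 43 of 50 (86%). For genes that rose at least 1.5-fold only 78.4% had a window, under the 80% set for such a check, so the check is void for them and no value is given. These are counts of letters in a window of the reference, and no measurement of the mark enters them.

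Among the gene classes most often named as Polycomb targets, the CDK inhibitors Cdkn2a and Cdkn2b and the imprinted Peg10 locus rose, and few other members were called. Cdkn2a, which encodes the inhibitors p16 and p19Arf, read 7.37, 7.55 and 7.47 in the controls and 8.81, 8.82 and 8.96 under Eed shRNA, 2.64-fold higher (adjusted p = 1.83e-07). Its neighbour Cdkn2b read 7.82, 8.09 and 7.83 against 9.05, 9.17 and 9.20, 2.34-fold higher. The other 4 CDK inhibitors listed were not called, with differences from 0.01 for Cdkn2c to 0.20 for Cdkn1c. The list was written with 6 genes and leaves out Cdkn1a, so it is not the whole family. After quantile normalization or cyclic loess 4 of the 6 were called higher.

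None of the 37 Hox genes measured was called in either direction by limma, 1 had an unadjusted p under 0.05, and their changes lay between -0.10 and 0.17. After cyclic loess 1 was called higher. Hoxa9, which MLL fusions keep active, stood at 10.55 ± 0.05 (SD, n = 3) in the controls and 10.45 ± 0.08 under Eed shRNA. Of 81 transcription factors of embryonic patterning and lineage choice, 1 was called, Tbx15, which rose by 0.30 but stayed under the background guide. Of 41 Wnt, Bmp, Fgf and Hedgehog ligands, 1 was called, Bmp2, by 0.49 ± 0.13. It too stayed under the guide, and its call (adjusted p = 0.0186) was lost when single arrays were left out. Among 41 germline genes 2 rose and 1 fell, none by more than 0.25. The shares of rises in these lists are below the 8.78% of all genes that were called higher. Of the 81 patterning factors 56 had a group mean above the guide, and of the 41 ligands 30 had. For the 37 Hox genes the number was 18 and for the 41 germline genes 9. Many members thus lay at background, where a change is hard to detect.

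Among 42 imprinted genes 7 rose and 3 fell, a share of rises of 16.7%. Peg10 and its neighbour Sgce, which shares the control region and encodes a dystrophin-associated sarcoglycan, account for the 2 rises of at least 1.5-fold, Sgce by 1.54 ± 0.11 from a control level of 7.03. Slc22a18 (0.41) and Phlda2 (0.33), both maternally expressed, rose less, and Jade1 fell by 0.48. The median of the list was 0.00, against -0.01 over all genes.

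**Figure D3:**
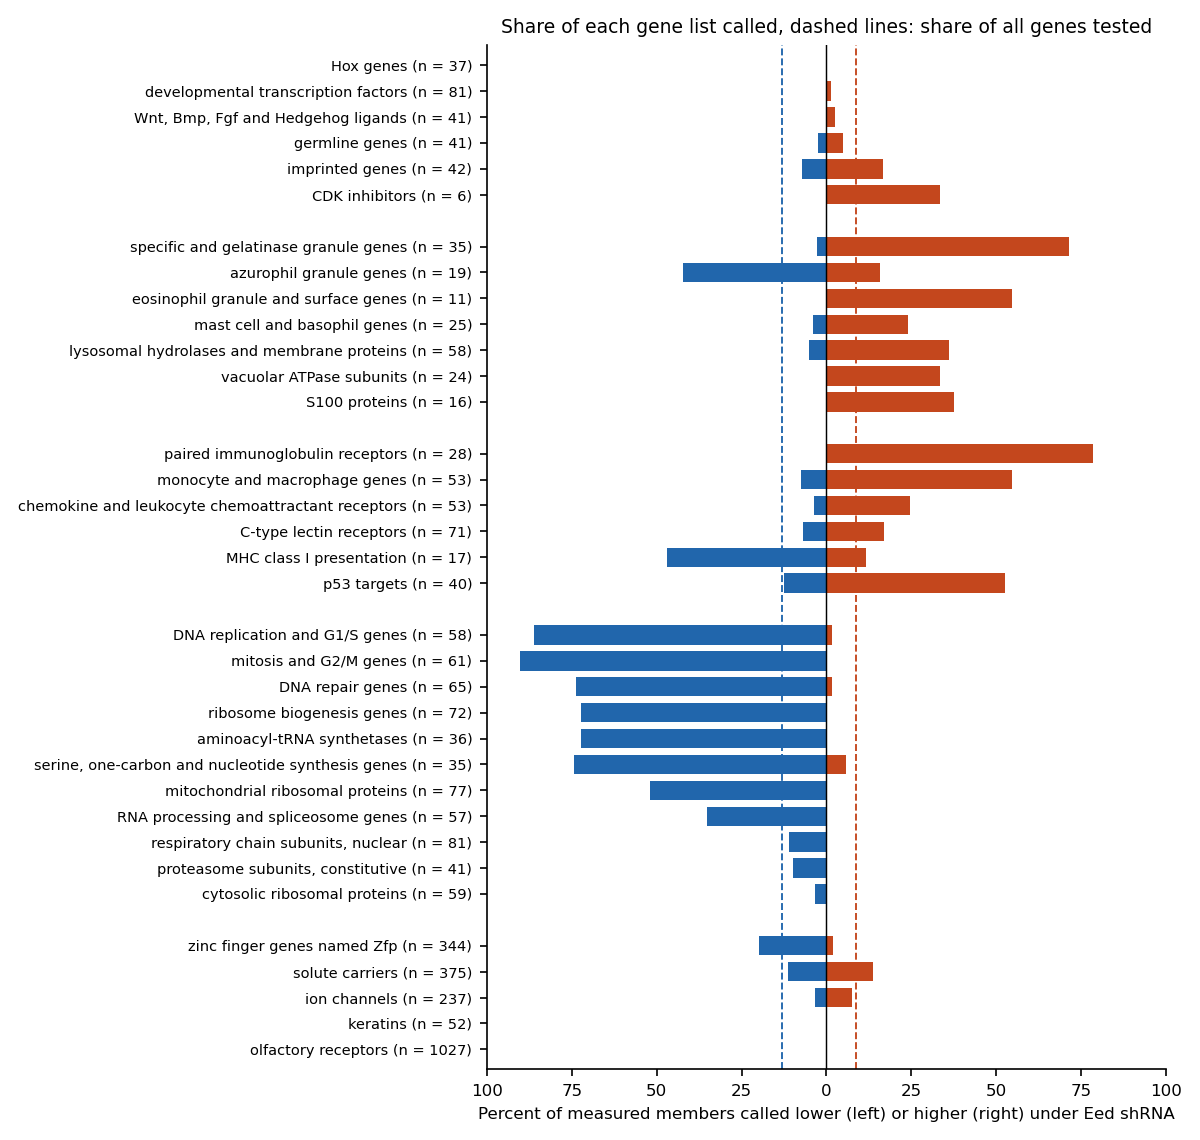
Share of the measured members of 35 gene lists that were called higher (right, red) or lower (left, blue) under Eed shRNA, in percent, with the number measured in parentheses. Dashed lines mark the shares over all genes, 8.78% higher and 13.1% lower. Most granule and receptor lists extend to the right, and the azurophil granule, replication, mitosis and ribosome biogenesis lists to the left.

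Most genes of late granules and of the mature neutrophil, listed together, rose, while genes listed for early granules fell more often than they rose. Azurophil granules form first, in promyelocytes, and specific and gelatinase granules form later. Of 35 genes of the later granules and of the mature neutrophil, 25 (71.4%) rose and 1 fell, with a median change of 0.55. Ltf, which encodes lactoferrin of specific granules, was not called, and its values are given with the comparison to Suz12 shRNA. After Mmp9 and Ly6g the largest were Arg2, a mitochondrial arginase (1.42), Dhrs9, a retinol dehydrogenase (1.36), and Mmp8, the neutrophil collagenase (1.30). Mmp8 read 6.23, 6.13 and 6.08 in the controls and 7.51, 7.43 and 7.41 under Eed shRNA. The mean level of the list lay between 8.72 and 8.75 in the control arrays and between 9.42 and 9.47 under Eed shRNA.

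Of 19 genes listed for azurophil granules, 8 (42.1%) fell and 3 rose. The list also holds Calr, Ap3s1, Gstm1, Dmkn and Igfbp4, which are not azurophil granule proteins. It shares Hp with the list of later granules, so the lists are not separate sets. Prtn3, proteinase 3, read 12.86, 12.86 and 12.94 in the controls and 12.34, 12.39 and 12.51 under Eed shRNA, a fall of 0.48 ± 0.06. Cst7, a cystatin that controls granule proteases, fell by 0.43 ± 0.05 and the serine protease Prss57 by 0.40 ± 0.10, a call (adjusted p = 0.0184) that some other fits lost. The 3 that rose were Lyz2, 2.01-fold from 12.26 to 13.27, and Lyz1, 1.68-fold, which encode lysozymes that are also stored in later granules and in macrophages, and Igfbp4 (0.20), named after its value was seen. The falls were all smaller than 1.5-fold, and these transcripts stayed among the most abundant. Mpo, the myeloperoxidase of azurophil granules, went from 13.33 ± 0.07 (SD, n = 3) to 13.11 ± 0.05, a fall of 0.23 ± 0.05 (SE).

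Granule proteins of eosinophils included some of the largest rises. Of 11 eosinophil genes measured 6 rose and 0 fell, with Prg2, Epx and Prg3 followed by Alox15, a lipoxygenase (1.43), Ear6, an eosinophil ribonuclease (0.88), and Il5ra, the receptor chain for interleukin 5 (0.74). Il5ra stayed under the background guide, at 6.11. Siglecf, a surface marker of mature eosinophils, was not called and stood at 8.80 ± 0.07 (SD, n = 3) in the controls and 8.71 ± 0.10 under Eed shRNA. Of 25 mast cell and basophil genes 6 (24%) rose and 1 (4%) fell, against 8.78% and 13.1% of all genes. Cpa3, a mast cell carboxypeptidase, rose 3.03-fold from an already high 10.34, Hdc, which makes histamine, 2.52-fold from 10.95, and the transcription factor Gata2 1.67-fold from 10.75. The basophil protease Mcpt8 fell by 0.28, and the receptor chain Fcer1a and the chymase Cma1 stayed at 4.88 and 5.51, under the guide. Bulk RNA cannot tell more cells of a kind from more RNA per cell, here and in every list below.

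Some degradative enzymes and inhibitors rose, though most members of these lists were not called. Of 58 lysosomal hydrolases and membrane proteins 21 (36.2%) rose, against 8.78% of all genes, and 3 fell; the rises numbered 17 to 30 across scalings. Ctsh, an aminopeptidase cathepsin, rose 2.62-fold, from 9.70, 9.58 and 10.03 to 11.16 on each of the 3 arrays. Ctse (0.67), the asparagine protease Lgmn (0.59), the tetraspanin Cd63 (0.55) and Ctsd (0.43) followed. Of 24 subunits of the proton pump that acidifies lysosomes 8 rose and 0 fell, led by Atp6v0d2 (0.85) and Atp6v0a1 (0.64).

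Of 82 metalloproteinases, ADAMs and their TIMP inhibitors 10 rose and 0 fell, a share of 12.2% that is near the 8.78% of all genes and was 7 genes under centring on array medians, and only 38 members had a group mean above the guide. Besides Mmp9, Mmp8 and Timp2, the sheddase Adam8 rose 2.45-fold from 11.36 and the macrophage elastase Mmp12 2.27-fold from 6.94. Among 15 stefins and cystatins, inhibitors of cysteine proteases, 4 (26.7%) rose, Stfa2 (1.63), Stfa3 (1.60), Csta2 (1.57) and Csta3 (0.92), and Cst7 fell. Of 24 clade B serpins 5 (20.8%) rose, with Serpinb6b (0.74) after the 3 named above, and Serpinb9, the granzyme B inhibitor, fell by 0.42 ± 0.07. Of 16 S100 proteins 6 (37.5%) rose and 0 fell. S100a6 rose 2.71-fold, and S100a8 and S100a9, which together form calprotectin of neutrophil cytosol, rose 2.08-fold and 1.94-fold.

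Inhibitory and activating receptors of the immunoglobulin family, listed with 2 adaptors, gave the highest share of rises among the 90 lists. The lists were chosen with earlier results of these data known, so this rank is partly a product of that choice. Of 28 genes of paired receptors (the LILR, PIR, CD300, CD200R, SIRP and TREM groups), 22 (78.6%) rose and 0 fell, with a median of 0.56, against 8.78% and -0.01 over all genes. The 28 include Hcst and Tyrobp, which encode signalling adaptors. When arrays were centred on their medians 20 rose and 2 fell. Pirb, an inhibitory receptor for MHC class I, rose 2.87-fold, from 7.84, 8.13 and 7.62 to 9.40, 9.48 and 9.27. Cd300lf rose 2.77-fold and Cd200r4 2.61-fold. Several of these genes are close copies of each other, so signal may be shared between their probe sets, which was not tested.

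Other receptor families moved in part, against shares over all genes of 8.78% higher and 13.1% lower. Of 16 Fc receptors 5 (31.2%) rose, led by Fcgr4 (1.19), and of 11 SLAM receptors 3 (27.3%) rose, led by Cd84 (1.18). Of 71 C-type lectin receptors 12 (16.9%) rose, led by Clec4a2 (1.21), and 5 (7.04%) fell, with Clec12a and Klrb1f (-0.78). Of 27 integrins 8 (29.6%) rose and 3 (11.1%) fell. Itga2b, the platelet and progenitor integrin chain, rose 3.08-fold, from 7.92 to 9.55, and the phagocyte chains Itgax and Itgam rose 2.93-fold and 1.62-fold. Itga4 (-0.56) and Itga1 (-0.70), which bind matrix and stroma, fell.

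Receptors that detect microbes or injury leaned upward, against 8.78% higher and 13.1% lower over all genes. Of 53 chemokine and chemoattractant receptors 13 (24.5%) rose and 2 (3.77%) fell. C5ar1, the receptor of complement fragment C5a, rose 2.59-fold (1.37 ± 0.12), Ccr1 by 1.10 and Ptafr, the receptor of platelet-activating factor, by 1.07. Of 51 Toll-like and NOD-like sensors and their co-receptors 10 (19.6%) rose, led by Cd14 (1.41), Tlr13 (1.19) and Tlr7 (0.91). In that list 5 (9.8%) fell, among them Ly86, which assists the related receptor Cd180. Of 59 interleukin and growth factor receptors 16 (27.1%) rose and 6 (10.2%) fell. Il7r rose by 1.02, Csf2rb2, a beta chain of the interleukin 3 receptor, by 1.0, and Il13ra1 by 0.93, while Flt3 fell.

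Secreted mediators showed a similar mix. Of 36 chemokines 10 (27.8%) rose and 1 (2.78%) fell, against 8.78% and 13.1% of all genes. Ccl6 rose 2.85-fold, from 8.88, 8.95 and 8.99 to 10.58, 10.34 and 10.43, Ccl4 by 1.19 ± 0.22, Ppbp by 0.76 ± 0.14 and Ccl2 by 0.64 ± 0.10, while Cxcl10 fell. Of 56 interleukins and colony-stimulating factors 5 rose, a share of 8.93% that is near the background, and 2 fell. The rises were led by Il1rn, Il1f9 (1.42) and Csf1 (1.09), the macrophage growth factor, and Il12a fell by 0.73. Of 42 enzymes of prostaglandin and leukotriene metabolism 12 (28.6%) rose and 2 (4.76%) fell. After Akr1c18 and Alox15 the leukotriene enzyme Alox5 rose 2.28-fold from 11.41 and the prostaglandin D synthase Hpgds by 0.93, while Hpgd fell.

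Interferon and antigen-presentation genes did not move as one. Over all genes 8.78% rose and 13.1% fell. Of 47 interferon-stimulated genes 11 (23.4%) rose, with the antiviral synthetases Oas2 (0.92) and Oas3 (0.82) and the RNA sensor Ddx58 (0.76). In that list 5 (10.6%) fell, with Cxcl10 and Ifi203 (-0.74), a share below that of all genes. Of 17 genes of MHC class I presentation 8 (47.1%) fell and 2 (11.8%) rose. The immunoproteasome subunits Psmb10 (-0.59) and Psmb8 (-0.42) and the trimming peptidase Erap1 (-0.41) led the falls. Of 15 MHC class II pathway genes 4 (26.7%) rose and 3 (20%) fell. The costimulatory ligand Cd80 rose 2.68-fold (1.42), and the peptide exchange chains H2-Ob (-0.56) and H2-DMa (-0.42) fell.

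Signalling genes included a set of rapid-response transcription factors. Of 34 AP-1 and early response factors 11 (32.4%) rose and 0 fell, led by Bhlhe40 (1.16), Id2 (1.05), Btg2 (0.99) and Egr1, which rose by 0.78 ± 0.18. Of 32 RAS and ERK feedback genes 8 (25%) rose, with the RAS exchange factor Rasgrp4 at 1.10, and 3 (9.38%) fell, with the phosphatase Dusp7 at -0.45. Nras itself, chosen after its value was seen, differed by -0.04 (adjusted p = 0.627). The list of JAK-STAT feedback genes had 3 rises and 6 falls as reported, but 6 and 2 after cyclic loess, so it has no settled direction.

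Lineage lists were read for what the cells were and for whether other cell types were present. The defining markers of the leukaemia line's own lineage were high in the controls, with Spi1 at 12.40, Cd33 at 12.05, Itgam at 11.91, Ptprc at 11.10 and Csf1r at 9.40. Of 53 monocyte and macrophage genes 29 (54.7%) rose and 4 fell, with a median of 0.25. After Itgax, Ccl6 and Cd14 came Lgals3, a galactose-binding lectin (1.26). The mean of this list lay between 8.37 and 8.46 in the controls and between 8.74 and 8.78 under Eed shRNA. Of 44 myeloid transcription factors 15 (34.1%) rose and 6 (13.6%) fell, with Ikzf2 (1.0) and Ets1 (0.83) behind Bhlhe40 and Id2. That share of falls is near the 13.1% of all genes. Cebpa and Cebpe, chosen after their values were seen because they act early and late in granulocyte maturation, moved in opposite directions. Cebpa read 10.14, 10.36 and 10.19 in the controls and 9.60, 9.36 and 9.54 under Eed shRNA, 1.66-fold lower. Cebpe read 11.96, 11.87 and 11.94 against 12.42, 12.48 and 12.48, 1.45-fold higher.

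The programme that MLL fusions maintain had no common direction. Of 27 such genes 5 rose and 5 fell, 18.5% each against 8.78% and 13.1% of all genes, with a median of 0.00. Besides Flt3 and Id2, the chromatin protein Hmga2 rose by 0.86 ± 0.15 and Satb1 by 0.43 ± 0.07, and Myc fell by 0.37 ± 0.05, from 12.90 to 12.53. Of 29 stem and progenitor markers 8 (27.6%) rose and 2 (6.9%) fell. Slamf1 (0.76), Vwf (0.70) and the Tie2 ligand Angpt1 (0.68) rose. Cd34 differed by -0.01 (adjusted p = 0.893) and Kit by -0.10 (adjusted p = 0.185). Of 21 genes of MLL and DOT1L complexes 4 rose and 4 fell, with the elongation factor Ell2 highest at 0.43.

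Some genes of other lineages rose, and their defining markers were mixed. Of 23 megakaryocyte and platelet genes 10 (43.5%) rose and 1 fell, with Thbs1, Itga2b, F2rl2, a thrombin receptor (1.17), P2ry1, an ADP receptor (0.98), and Cd9 (0.87). Vwf, which tethers platelets, rose by 0.70. Of the platelet granule chemokines Ppbp rose by 0.76 ± 0.14, from 5.89 to 6.65, and Pf4 was not called, at 5.03 and 5.07, under the guide. Gp9, a platelet adhesion receptor subunit, was not called (0.04). The mean of that list lay between 8.09 and 8.17 in the controls and between 8.59 and 8.63 under Eed shRNA. Of 23 erythroid genes 4 (17.4%) rose, with Gata1 at 0.69, and 2 (8.7%) fell, against 8.78% and 13.1% of all genes. The calls on Hbb-y, Epor, Fech and Tfrc were lost in some other fits, and the counts were 2 and 3 under centring on array medians and 5 and 1 after cyclic loess. The mean of the list lay between 6.74 and 6.83 and between 6.85 and 6.87.

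Of 23 B cell genes 3 rose, Bank1 (1.07), Il7r (1.02) and Cd72 (0.55), and 0 fell. The share of rises, 13%, is near the 8.78% of all genes. Cd79a and Ms4a1 stayed between 4.78 and 4.84, under the guide, and the mean of the list lay between 6.08 and 6.15 in the controls and between 6.24 and 6.26 under Eed shRNA. Of 31 T and NK cell genes 4 (12.9%, also near that of all genes) rose, led by Prf1, perforin (0.92), and 1 fell. The calls on Lat, Cd28 and Klrd1 were lost in some other fits. Cd3g, Cd4, Ncr1 and Klrb1c were under the guide in both groups, Cd8a differed by 0.07 at a level near it, and Cd3e was at 6.82 and 6.81. The list's mean lay between 6.21 and 6.25 and between 6.30 and 6.33. Of 24 fibroblast and stromal genes 5 (20.8%) rose, led by Pdgfrb (0.66) and Fn1, fibronectin (0.62), and 0 fell. Their mean lay between 6.97 and 7.06 and between 7.11 and 7.17. Dcn and Pdgfra were under the guide, and the collagens Col1a1 and Col1a2 were not called. The part of such cells in the results was not tested.

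Of 40 targets of p53, 21 (52.5%) rose and 5 fell, with a median of 0.23. Behind Perp came Trp53inp1, which read 8.81, 8.57 and 8.74 in the controls and 10.39, 10.30 and 10.30 under Eed shRNA, 3.09-fold higher. Trp53inp2 (1.13), which acts in autophagy, the antiproliferative gene Btg2 (0.99) and Zmat3 (0.98) followed. Mdm2, the ligase that degrades p53 and is itself a target, rose by 0.29 ± 0.05, and Ccng1, another standard target, by 0.23 ± 0.05; both were chosen after their values were seen. Among 34 BCL2 family and caspase genes 6 rose and 6 fell, 17.6% each against 8.78% and 13.1% of all genes. Of these, 1 rose by at least 1.5-fold. This was Bcl2l11, the pro-apoptotic protein Bim, which rose 2.40-fold, from 8.95, 9.05 and 9.05 to 10.33, 10.33 and 10.17.

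Most genes of cell division fell, each by a small amount. Of 58 DNA replication and G1/S genes 50 (86.2%) fell and 1 rose, with a median of -0.30. Orc1, the largest subunit of the origin recognition complex, read 8.59, 8.54 and 8.80 in the controls and 7.84, 7.99 and 7.89 under Eed shRNA, 1.67-fold lower, and was the only one past 1.5-fold. Thymidine kinase Tk1 (-0.54), the single-strand binding subunit Rpa2 (-0.52), Orc2 (-0.51) and the licensing factor Cdt1 (-0.48) followed. Of 61 genes of mitosis and G2/M 55 (90.2%) fell and 0 rose, with a median of -0.30. Espl1, which cleaves cohesin at anaphase, fell by 0.54 ± 0.06, the microtubule depolymerase Kif2c by 0.53 ± 0.05 and the cohesin protector Sgo1 by 0.52 ± 0.06. All 61 were lower, from -0.04 to -0.54.

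Of 65 DNA repair genes 48 (73.8%) fell and 1 rose, with Brca2 (-0.54), the nuclease Exo1 (-0.53) and the checkpoint kinase Chek1 (-0.50). Of 26 replication-dependent histone genes, whose messages lack a poly(A) tail, 10 fell and 0 rose. Across scalings the counts of falls stayed between 44 and 52 for replication and between 42 and 50 for repair.

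Genes of several steps of protein synthesis fell. Of 72 ribosome biogenesis genes 52 (72.2%) fell and 0 rose, with a median of -0.22, led by the rRNA methyltransferase Dimt1 (-0.43), the RNA polymerase I subunit Polr1b (-0.42) and Wdr74 (-0.39). Of 36 aminoacyl-tRNA synthetases 26 (72.2%) fell and 0 rose, led by Nars2 (-0.40), Mars2 (-0.39) and Cars (-0.38). Of 77 mitochondrial ribosomal proteins 40 (51.9%) fell and 0 rose, led by Mrps30 (-0.51). Of 57 RNA processing genes 20 (35.1%) fell and 0 rose, led by Lsm2 (-0.47).

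Few cytosolic ribosomal protein genes were called. Of 59 measured 2 fell, Rpl12 and Rpl23a, and 0 rose, with a median of 0.01; both calls were lost in other fits, and 9 other probe sets of Rpl23a differed by between -0.13 and 0.12. Near or below the 13.1% of all genes that fell were also the constitutive proteasome subunits, with 4 of 41 lower (9.76%), and the nuclear-encoded respiratory chain subunits, with 9 of 81 lower (11.1%). Under centring on array medians those counts were 7 and 17. Differences between lists were not tested.

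**Figure D4:**
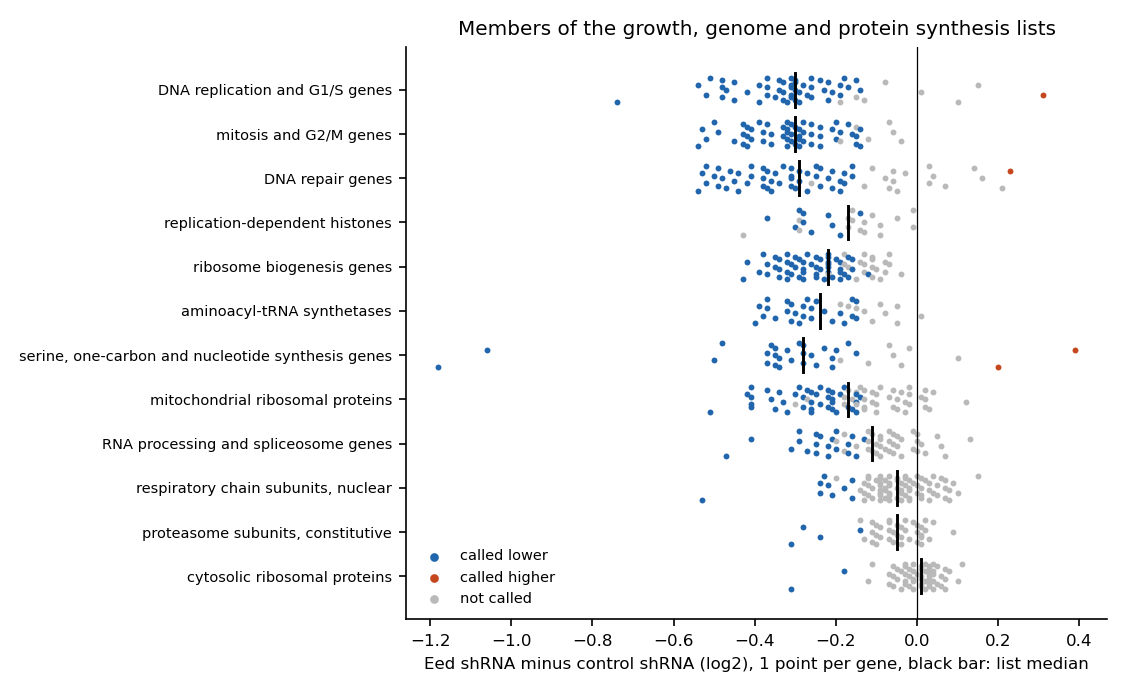
Change under Eed shRNA (horizontal axis, log2) of every measured member of 12 lists, 1 point per gene, blue if called lower, red if called higher and grey if not called; black bars are list medians. Medians run from -0.30 for replication and mitosis genes to 0.01 for cytosolic ribosomal proteins.

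Metabolic lists differed in their counts, against 8.78% higher and 13.1% lower over all genes. Of 35 genes of serine, one-carbon and nucleotide synthesis 26 (74.3%) fell and 2 rose, with a median of -0.28. Besides Aldh1l2 and Cth, the pyrimidine enzyme Dhodh (-0.50) and the first purine enzyme Ppat (-0.48) fell, and the cytosolic folate enzyme Aldh1l1 rose by 0.39. Aldh1l2 read 7.66, 8.12 and 8.24 in the controls and 6.88, 6.81 and 6.79 under Eed shRNA. Of 41 fatty acid oxidation and peroxisome genes 14 (34.1%) fell and 2 (4.88%) rose, led by Cpt1a (-0.48), the carnitine transferase that admits fatty acids to mitochondria. Of 34 glycolysis and pentose phosphate genes 10 (29.4%) rose and 4 (11.8%) fell, with Aldoc (0.55), glycogen phosphorylase Pygl (0.53) and the lactate exporter Slc16a3 (0.44) higher. Of 41 genes of lipid synthesis, storage and transport 6 (14.6%) rose and 3 fell, with a median of 0.00. The rises were led by lipoprotein lipase Lpl (0.86), the droplet coat Plin2 (0.71) and Dgat2 (0.65). Of 22 genes of cholesterol synthesis and uptake 1 rose, Hsd17b7 (0.32), and 4 fell, led by Tm7sf2 (-0.53). The share of falls, 18.2%, is near the 13.1% of all genes. It was 7 genes under centring on array medians and 1 after cyclic loess. The calls on Insig1, Stard4 and Dhcr7 were lost in some other fits.

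The ATF4 stress list, which shares targets with amino acid supply, fell more often than it rose. Of 41 members 13 (31.7%) were lower and 4 (9.76%) higher, against 13.1% and 8.78% of all genes. Chac1, which degrades glutathione, fell by 0.77 ± 0.14, the glycine transporter Slc6a9 by 0.70 ± 0.10. Nupr1, a stress-induced chromatin protein, fell by 0.63 ± 0.16, but this call (adjusted p = 0.0151) was lost in some other fits. Against that direction Slc7a11, the cystine importer, rose 3.10-fold, from 10.33, 11.27 and 10.60 to 12.30, 12.58 and 12.22, and Ddit4, an inhibitor of mTOR, by 0.73 ± 0.08. In the list of NRF2 antioxidant genes, where Slc7a11 also belongs, 7 of 40 rose and 7 fell, 17.5% each. The NADPH source Me1 (0.98) and haem oxygenase Hmox1 (0.91) rose and the metallothionein Mt2 fell by 0.52. The second probe set of Me1 differed by 0.39 (adjusted p = 0.0694).

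Broad families served as a wider view of the genome. Of 375 solute carriers 51 (13.6%) rose and 42 (11.2%) fell. The amino acid transporter Slc7a8 rose by 1.52, the iron exporter Slc40a1 by 1.32 and the serotonin transporter Slc6a4 by 0.98. Under centring on array medians the counts were 44 and 50, so the family as a whole has no settled direction. Of 344 zinc finger genes named Zfp 68 (19.8%) fell and 7 rose, by at most 0.55 in size. Of 237 ion channel genes 18 (7.59%) rose and 8 (3.38%) fell, both below the shares over all genes, 8.78% and 13.1%. Trpm2, a channel of phagocytes opened by oxidative stress, rose by 0.95. Families of sensory and epithelial cells had few calls. By limma 1 of 1027 olfactory receptors was called, 0 of 163 vomeronasal receptors (5 at an unadjusted p under 0.05) and 0 of 52 keratins (2 at an unadjusted p under 0.05). Under centring on array medians 8 olfactory receptors, 4 vomeronasal receptors and 2 keratins were called lower. Of 300 microRNA genes on the array, a smaller share than of all genes was called, 3 higher and 5 lower. These include Mir142, of blood cells (0.62), and, lower, Mir18 (-0.47) and Mir19a (-0.57), 2 members of 1 cluster, all chosen after their values were seen.

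The gene lists reach only part of the change. Of 396 genes that rose at least 1.5-fold 179 belong to at least 1 list, and of 79 that fell as far 28 do.

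Genes that rose also lay next to each other more than once. In chromosomal order, with 19852 genes placed, 78 of the 475 genes changed at least 1.5-fold lay in unbroken runs of 2 or more with the same direction. There were 27 runs of 2 that rose, 1 run of 2 that fell and 6 longer runs, all of which rose. Serpinb2, Serpinb10 and Serpinb8 formed 1 run, bounded by Serpinb7 (0.15, adjusted p = 0.0616) and Cdh7 (0.00). In the stefin cluster 5 neighbours, Csta3, Csta2, Cstdc6, Stfa2 and Stfa3, rose by 0.92 to 1.63, between Gm6815, which fell by 0.16 (adjusted p = 0.0463), and Casr (-0.02). The CD200 receptor genes Cd200r1, Cd200r4, Cd200r2 and Cd200r3 rose by 1.36 to 2.54, and the next gene, Ccdc80, which encodes an unrelated matrix protein, by 1.39. Outside that run Gtpbp8 and Slc35a5 differed by -0.08 and 0.15.

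The other 3 runs were shorter or less sharply bounded. Cd300ld, Cd300c2 and Cd300e rose by 0.70 to 1.04, and in the same cluster Cd300lf rose by 1.47 and Cd300lb by 0.78, so the rise extends past the run. Clec4a2, Clec4b2 and Clec4n rose by 0.69 to 1.21, while Clec4a1, Clec4a3, Clec4a4 and Clec4b1 on one side differed by 0.02 to 0.11 and did not pass the test. On the other side Clec4d rose by 0.51 and Clec4e by 0.35. Dgat2, Mogat2 and Map6 rose by 0.65, 2.13 and 0.90. Dgat2 and Mogat2 are related acyltransferases, while Map6 encodes a microtubule protein. In 5 of the 6 runs most members are copies of 1 ancestral gene, so probes of one may also bind transcripts of another, which was not tested.

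**Figure D5:**
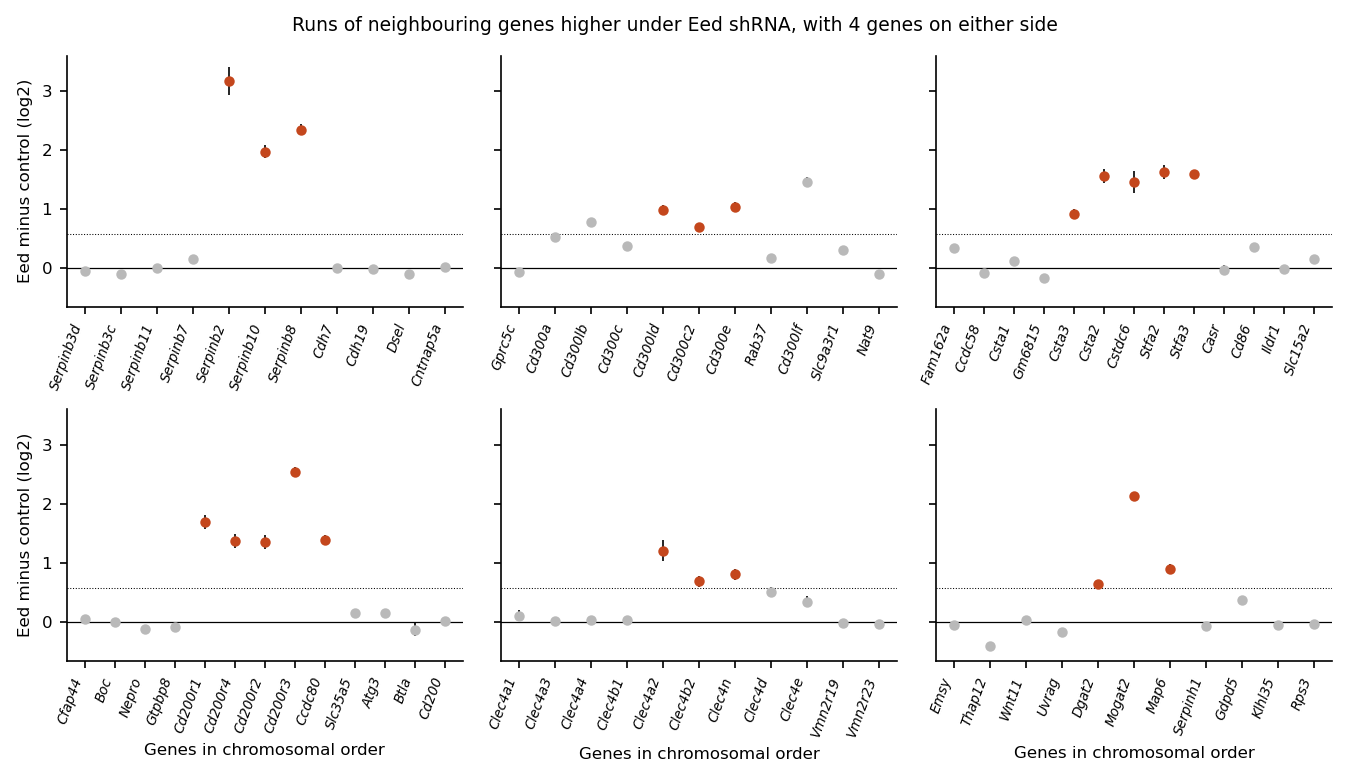
Change under Eed shRNA (vertical axis, log2, bars are 1 SE of the moderated fit) of the 6 runs of at least 3 neighbouring genes that rose (red) and of 4 genes on either side (grey), in chromosomal order; the dotted line is 1.5-fold. In the serpin, stefin and CD200 receptor panels the genes next to the run lie between -0.16 and 0.15.

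The response to Eed shRNA was set directly against that to Suz12 shRNA. The difference uses no control array, but the spread behind its SEs and p-values was estimated from all 9 arrays. Of 19937 genes 35 (0.176%) were called between the knockdowns, 28 higher under Suz12 shRNA and 7 lower. At an unadjusted p under 0.05 there were 1209. Among the 475 genes that Eed shRNA changed at least 1.5-fold, 12 were in the 35, a larger share than the 0.176% over all genes. Of the 35, 28 were also called in Eed shRNA against control. Both comparisons use the Eed shRNA arrays, so the overlap is not an independent result. A gene outside the 35 is not thereby shown to be equal in both. Besides the targets, the largest difference was in Fn1, which Suz12 shRNA raised further, with 8.57, 8.51 and 8.33 against 7.5, 7.22 and 7.16 under Eed shRNA and 6.62, 6.78 and 6.60 in the controls (1.18 ± 0.09 between the knockdowns, adjusted p = 0.000617). Ltf, lactoferrin of specific granules, read 8.54, 8.51 and 8.56 under Suz12 shRNA and 7.41, 7.61 and 7.51 under Eed shRNA, where it was not called against the controls (0.19, adjusted p = 0.0689). Camp, the cathelicidin, was 0.69 and Ngp 0.59 higher under Suz12 shRNA. Mmp9 was 0.57 and Lcn2 0.40 higher, and each of these calls was lost in 6 of 14 alternatives.

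In the other direction, Igfbp7 was 0.41 lower under Suz12 shRNA than under Eed shRNA, with rises over the controls of 1.41 and 1.81. For some genes the fall under Eed shRNA was the larger one. Pip5k1a, which makes a phosphoinositide, read 9.95, 10.23 and 10.19 in the controls and 9.34, 9.38 and 9.40 under Eed shRNA, a fall of 0.75 ± 0.07. Suz12 shRNA differed from the controls by -0.10 (adjusted p = 0.382) and from Eed shRNA by 0.65, a call lost in 2 of 14 alternatives. Kpna6, a nuclear import adaptor, fell by 0.60 under Eed shRNA. It also fell under Suz12 shRNA, to a level that was 0.42 higher (-0.17 against the controls, adjusted p = 0.00544). Pip5k1a, Kpna6, Leprot, Camp, Ngp and Lcn2 were chosen after their values were seen. With 1 shRNA for each gene, an effect of losing 1 subunit and an effect of 1 hairpin on another transcript cannot be told apart. Leaving out any 1 of the 6 arrays reduced the 35 calls to between 8 and 18. In all 14 alternatives 8 genes were called: Eed, Suz12, Fn1, Ltf, Camp, Ngp, Kpna6 and Leprot. The 14 do not include the fit of each probe set on its own.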

How the data were processed

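The deposited values are log2 expression values that the authors made with RMA, per the submitters' processing notes; the software version is not given in the sources used here. RMA corrects background, normalizes quantiles and summarizes probes, and leaves no count or detection call, so precision is limited by how many arrays there are. Of 34760 probe sets, 21640 had 1 gene symbol in the platform annotation, 1321 had several and 11799 had none. Each of 19937 genes was read from its probe set with the highest mean over 9 arrays.

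Groups came from the labels. limma 3.58.1 (R 4.3.3) was fitted to all 9 arrays, with lmFit and eBayes, and gave Eed shRNA minus control and Suz12 shRNA minus Eed shRNA. Benjamini-Hochberg adjustment ran over all genes, two-sided, with calls at an adjusted p under 0.05. The procedure was tested on simulated data. Named genes are the PRC2 genes, the 25 largest rises and 20 largest falls with separated arrays, up to 5 called members of each of 90 lists with up to 2 uncalled members that define it, defining cell type markers, the 5 largest differences in each direction between the knockdowns, and runs of 3 or more neighbours; others are said to be chosen after their values were seen. The comparison, its members and the lists were chosen with earlier results of these data known, and some lists' name patterns were corrected after the data were read. Promoter windows and gene order came from RefSeq (GRCm38.p6). Alternatives were other scalings, other probe set rules, a filter on dim genes, a variance trend, fits of 2 groups, a replicate block and leaving out each array.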

Additional observations from a re-analysis of the deposited data

Results flagged for a closer look

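The effects of Suz12 shRNA and Eed shRNA differed in the direct comparison (limma, adjusted p under 0.05 over all genes) for these named genes. Higher under Suz12 shRNA by log2 difference were Fn1 (1.18), Ltf (1.02), Bmp2 (0.88), Retnla (0.77), Mmp9 (0.57) and Tbx15 (0.51). Lower under Suz12 shRNA were Lrrc8a (-0.47), Igfbp7 (-0.41), Mmp19 (-0.40) and Foxred2 (-0.36). Of these 10 genes only Fn1 and Ltf were called in all 14 alternatives, which do not include the fit of each probe set on its own. The other 8 lost the call in at least 1 fit that left out an array. Both knockdowns share their control arrays, which do not enter this difference. They do share in the estimate of the spread behind its p-values.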

How the results depend on the processing

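The counts of genes called in Eed shRNA against control stayed within 1.5 times the reported 4352 in every alternative run, and ranged from 3428 to 4118 when 1 of the 6 arrays was left out. No named gene reversed. Of 388 named genes called, 345 kept the call and its direction in every alternative that gave a value and 43 lost it in at least 1. The fit of each probe set on its own was not among those alternatives. The 35 genes called between Suz12 shRNA and Eed shRNA became 9 with all probe sets tested separately, and between 8 and 18 when 1 array was left out; the cause was not tested. Replicate numbers did not pair the arrays: deviations from the group means correlated at -0.072 to 0.092 for equal numbers (3 pairs) and at -0.163 to 0.14 for unequal ones (6 pairs). With the replicate number as a block 4242 genes were called against control and 25 between the knockdowns. Signal near background limits what can be said of dim genes.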
